A study of Danio rerio with 6 samples.

Results

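Integrin subunit genes were followed in the kidney of adult zebrafish that lack runx1, a transcription factor gene of blood development. The members were all genes whose symbol begins with itga or itgb and a digit, or is itgae, itgal, itgam, itgav or itgax. The thrombocyte genes itga2b and itgb3b and the genes of integrin-binding proteins were left out, and 31 of the 32266 genes in the tables remained. A further 2 identifiers carry the symbol ITGB3 without saying which of them is itgb3b. They are described separately and left out of the counts, except in an alternative given at the end. itgal, itgax and itga7 were not analysed here. The mutant fish were runx1-/- (allele del25, hg97) and the controls their wild type siblings, all of the EK strain and about 2.5 months old. RNA was taken from pools of 3 dissected kidneys, with 3 pools per genotype, and each pool gave 1 library.

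An integrin is a receptor at the cell surface made of an alpha and a beta subunit, which joins the cell to matrix proteins or to other cells. Leukocytes use the beta2 subunit, joined in the neutrophil and macrophage receptor to the alphaM subunit, and the beta7 subunit, which pairs with alpha4 or alphaE. Epithelial cells stand on basement membrane through the laminin receptors formed by alpha3 and alpha6 subunits, with beta1 or beta4 as partner. In fish the kidney also makes blood throughout adult life, and the dissected organ holds both kinds of cell. The members were sorted by these textbook roles into 7 leukocyte subunits and 10 epithelial subunits, and the other 14 were called broad. The broad class is thus a remainder, and not all of its members need be widely made. This sorting does not say which cells of these pools made a transcript.

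The runx1 null libraries held 16147770 to 27480381 estimated counts and the wild type libraries 23821763 to 30577328. runx1 itself had 0, 5 and 5 counts in runx1 null pools and 8, 5 and 7 in wild type pools, too few to check the genotype of a library. Levels are given as CPM, counts scaled to the size of the library, and are not corrected for gene length, so they are compared between pools and not between genes. Wild type pool 1 stood apart from the other libraries. Its scaling factor was 0.771, against 1.01 to 1.08 in the other pools. The 6 of 9 kidney tubule markers with a matched identifier were cdh17, cubn, lrp2a, pax8, slc12a1 and slc12a3. In this pool they summed to 201 CPM, against 868 to 1833 CPM in runx1 null pools and 798 and 1527 CPM in the other wild type pools. Each was lowest in this pool, and cdh17 was the largest part of the sum in every pool. By their means, 3 of 6 were lower in runx1 null pools.

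Most leukocyte subunits had lower levels in runx1 null kidneys than in wild type kidneys, 5 of 7, and most tested epithelial subunits higher ones, 7 of 8 (4 of 8 without runx1 null pool 3), but no member passed the test in edgeR. Of the 31 members, 28 had enough counts to be tested. After adjustment over all 18864 genes tested, 0 of the 28 had an edgeR adjusted p-value under 0.05 (0% of all genes did), and the lowest among members was 0.787. DESeq2's Wald test called 1 member, ITGA2, where it called 0.557% of all genes. At an unadjusted edgeR p-value under 0.05 there were 3 members, which is 10.7% of the 28 against 5.23% of all genes. That count was 6 of 30 when wild type pool 1 was left out, where 1437 of 19624 genes were under the same threshold. It was 1 of 30 without runx1 null pool 1, where 612 of 19547 genes were. Without runx1 null pool 3 it was 1 of 29 (746 of 19316 genes), and without wild type pool 2 it was 1 of 28 (952 of 19505 genes). Among the 3, itgb2 and ITGA2 were lower, as were 2.66% of all genes, and 1 ITGB1 identifier was higher, as were 2.57%. For 4 members, or 14.3%, runx1 null and wild type values did not overlap, a share near the 12.5% of all genes. With 3 pools against 3, an exact two-sided permutation test of a single gene cannot give a p-value under 0.1. In bulk tissue, fewer cells of a type and less RNA per cell cannot be told apart.

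The median log2 fold change, runx1 null over wild type, was -0.80 for the 7 leukocyte subunits, 0.52 for the 8 tested epithelial subunits and 0.18 for the 13 tested broad subunits, against -0.026 for all genes tested. The fold change was negative for 5 of the 7 leukocyte subunits, 1 of the 8 epithelial subunits and 2 of the 13 broad subunits, where 52.1% of all genes were negative. The difference between classes was not tested. The sizes leaned on single libraries, and each fit was filtered anew, so some medians cover a further member. The leukocyte median was -0.45 without wild type pool 2 and -1.09 without wild type pool 1. The epithelial median was 0.30 over 9 members without wild type pool 1 and 0.018 over 8 members without runx1 null pool 3. The broad median was 0.066 without runx1 null pool 2 and 0.12 without wild type pool 1, both over 14 members. It was 0.29 and 0.31 over 13 members without wild type pool 2 and pool 3. Where the number of members differs, a shift in the median is not owed to the library alone. In a fit that weights the libraries (limma voom) the epithelial median was 0.072, with 4 of 8 subunits higher.

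**Figure D1:**
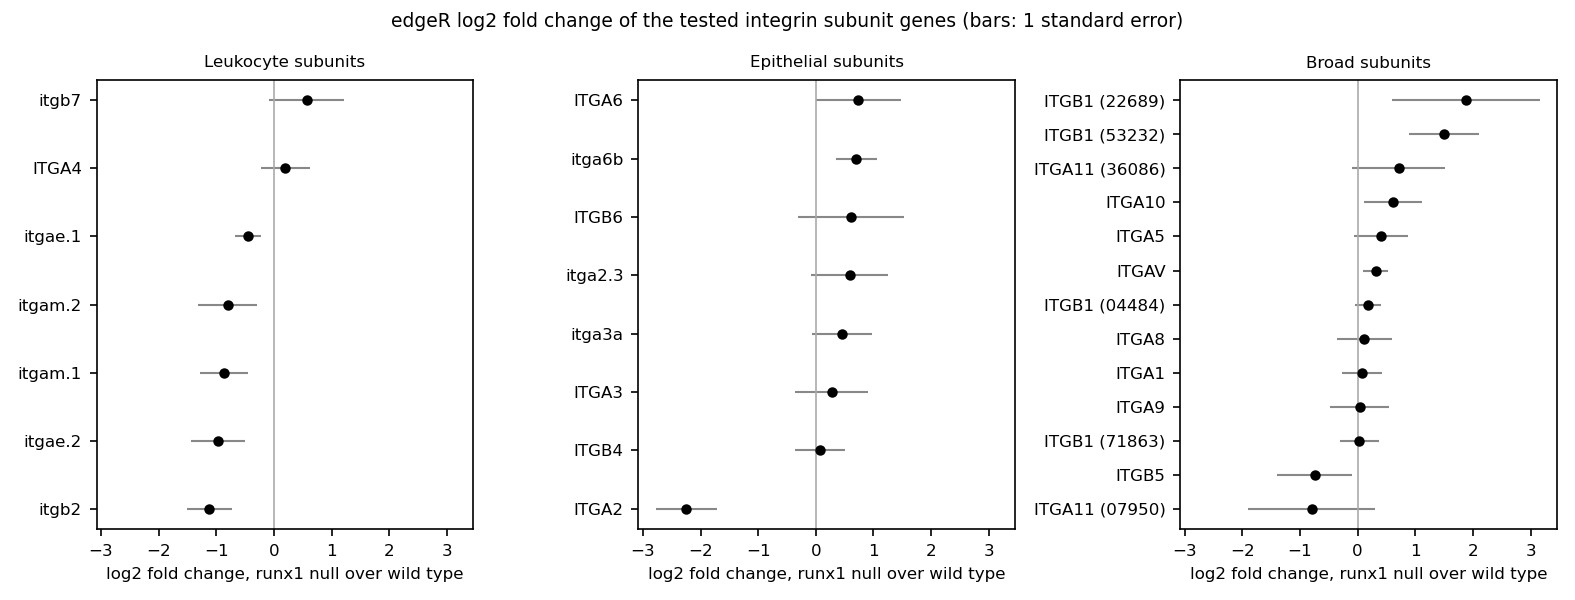
edgeR log2 fold change, runx1 null over wild type (x axis), of each tested integrin subunit gene (y axis), in 3 panels by class; points are estimates and bars 1 standard error. Of the leukocyte subunits 5 of 7 lie left of 0, and of the epithelial subunits ITGA2 alone does, at -2.25 (4 of 8 do in the fit without runx1 null pool 3); no member passed the edgeR test.

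The beta2 subunit gene itgb2 (ENSDARG00000016939) encodes the shared beta chain of the leukocyte receptors. It was at 32.2, 43.5 and 30.6 CPM in runx1 null pools 1, 2 and 3, against 44.9, 115 and 70.9 CPM in wild type pools 1, 2 and 3. Every runx1 null pool lay below every wild type pool, although runx1 null pool 2 and wild type pool 1 were close to each other. The log2 fold change was -1.12 (SE 0.38), with an unadjusted edgeR p-value of 0.0229 and an adjusted one of 0.811. It was -0.71 without wild type pool 2, the highest pool, and -1.40 without wild type pool 1.

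The genes of the alphaM subunit, which with beta2 forms the complement receptor of neutrophils and macrophages, leaned the same way with overlap between the genotypes. itgam.1 (ENSDARG00000002956) was at 24.3, 22.4 and 13.6 CPM in runx1 null pools and at 21.0, 54.5 and 33.9 CPM in wild type pools. Wild type pool 1 lay among the runx1 null pools. The log2 fold change of itgam.1 was -0.86 (SE 0.41, adjusted p-value in edgeR 0.811). It was -0.45 without wild type pool 2 and -1.15 without wild type pool 1. itgam.2 (ENSDARG00000096587) was at 3.23, 4.77 and 2.04 CPM in runx1 null pools and 2.99, 7.91 and 6.63 CPM in wild type pools, with a log2 fold change of -0.80 (SE 0.51; adjusted p-value in edgeR 0.811), or -0.53 without wild type pool 2. Again only wild type pools 2 and 3 lay above all runx1 null pools.

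The balance between itgam.1 and itgb2 transcripts was almost constant among wild type pools, and that between itgam.2 and itgb2 less so. The CPM of itgam.1 divided by that of itgb2 was 0.755, 0.514 and 0.445 in runx1 null pools and 0.468, 0.474 and 0.479 in wild type pools. For itgam.2 over itgb2 the ratio was 0.100, 0.110 and 0.0667 in runx1 null pools and 0.0666, 0.0687 and 0.0935 in wild type pools. These ratios depend on the lengths of the genes and were compared only between pools, with no test. For itgam.1, runx1 null pool 1 had the highest ratio, while runx1 null pool 3 was below all wild type pools. For itgam.2, runx1 null pool 2 had the highest ratio. itgam.1 and itgb2 kept nearly the same proportion in wild type pools even though itgb2 itself ranged from 44.9 to 115 CPM there. Ratios to the beta7 gene itgb7 were less even in wild type pools. The ratio for itgae.1 was 11.7, 3.26 and 9.81 in runx1 null pools and 8.63, 12.3 and 25.3 in wild type pools. That for itgae.2 was 2.85, 1.95 and 3.96 against 4.49, 9.76 and 10.2, with no overlap. That for ITGA4 was 7.19, 3.68 and 5.02 in runx1 null pools and 6.02 and 4.98 in wild type pools 1 and 2. It was highest in wild type pool 3.

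The alphaE subunit binds E-cadherin on epithelial cells and marks lymphocytes within epithelia in mammals. itgae.1 (ENSDARG00000098012) was at 18.1, 17.1 and 18.9 CPM in runx1 null pools, against 23.7, 28.3 and 22.3 CPM in wild type pools. The groups did not overlap, and the spread within each was small. The shift was also small, a log2 fold change of -0.46 (SE 0.22), with an unadjusted edgeR p-value of 0.0826 and an adjusted one of 0.811. itgae.2 (ENSDARG00000057787) was at 4.43, 10.2 and 7.64 CPM in runx1 null pools and 12.3, 22.4 and 9.03 CPM in wild type pools, where wild type pool 3 lay below runx1 null pool 2. Its log2 fold change was -0.97 (SE 0.46; adjusted p-value in edgeR 0.811), and -0.52 without wild type pool 2. Because the itgae genes have similar names and may share reads, their sum was also taken: it was 22.6, 27.4 and 26.5 CPM in runx1 null pools and 36.1, 50.7 and 31.3 CPM in wild type pools, with no overlap.

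The remaining leukocyte subunits, alpha4 and its partner beta7, guide lymphocytes and blood progenitors to their tissues. ITGA4 (ENSDARG00000103056) was at 11.2, 19.3 and 9.68 CPM in runx1 null pools and 16.5, 11.4 and 7.05 CPM in wild type pools, a log2 fold change of 0.20 (SE 0.42; adjusted p-value in edgeR 0.906). itgb7 (ENSDARG00000044318) was at 1.56, 5.24 and 1.93 CPM in runx1 null pools and 2.75, 2.29 and 0.882 CPM in wild type pools, a log2 fold change of 0.57 (SE 0.65; adjusted p-value in edgeR 0.830). Both genes were highest in runx1 null pool 2 and lowest in wild type pool 3. Without runx1 null pool 2 their log2 fold changes were -0.19 and -0.20, and all 7 leukocyte subunits were then negative.

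**Figure D2:**
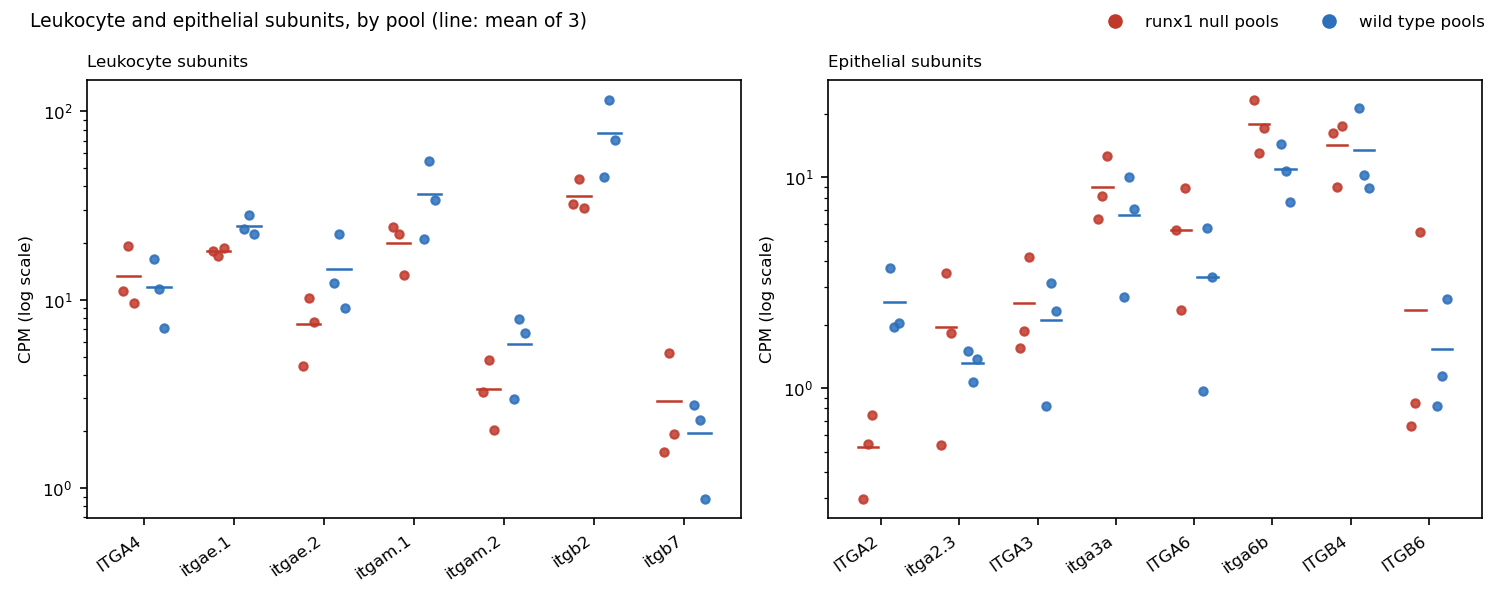
CPM on a log axis (y) of the leukocyte subunits (left) and tested epithelial subunits (right); each point is a pool of kidneys, runx1 null pools left of wild type pools, and the line is the mean of 3. itgb2 and itgae.1 separate with all runx1 null pools lower, and so does ITGA2, at 0.299 to 0.742 CPM in runx1 null pools against 1.94 to 3.71 CPM in wild type pools.

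The summed neutrophil markers were lower in every runx1 null pool, as itgb2 was, while macrophage marker sums overlapped between the genotypes and T and NK marker sums were higher in every runx1 null pool. The 3 of 6 neutrophil markers with a matched identifier (lyz, npsn and mmp13a) summed to between 100.3 and 127 CPM in runx1 null pools and between 245 and 1381 CPM in wild type pools, with 3 of 3 lower in their mean. lyz and npsn did not overlap between the genotypes, whereas mmp13a did, at 72.9 CPM in runx1 null pool 2 against 28.2 CPM in wild type pool 1. Among wild type pools, pool 2 was highest and pool 1 lowest, the same order as for itgb2. The macrophage, B lymphocyte and kidney tubule sums had this order in wild type pools too. Among runx1 null pools the neutrophil sum was highest in pool 3, at 127 CPM, where itgb2 was lowest, at 30.6 CPM. The 6 macrophage markers summed to between 218 and 296 CPM in runx1 null pools and between 233 and 350 CPM in wild type pools, with 5 of 6 lower. Most of each sum came from marco (log2 fold change -0.19) and cd74a (0.29), the only marker with a higher mean. The others had log2 fold changes of -0.83 (c1qa), -0.77 (csf1ra), -0.51 (c1qb) and -0.33 (c1qc), each with overlap between the genotypes. The 6 T and NK lymphocyte markers summed to between 11.6 and 16.9 CPM in runx1 null pools and between 7.39 and 10.4 CPM in wild type pools, with 1 of 6 lower. That one, cd4-1, had a log2 fold change of -0.0012. Only lck and cd8a did not overlap between the genotypes, and cd8a, at 4 to 29 counts per pool, was not tested. Upward separation was found for 6.24% of all genes tested. The 5 B lymphocyte markers summed to between 1.25 and 117 CPM in runx1 null pools and between 7.62 and 34.3 CPM in wild type pools, with 4 of 5 lower. The upper end in runx1 null pools came from ighm, the only one with a higher mean, at 114 CPM in pool 3. No marker of these lists was at 0 in all libraries. The part of these cells in the integrin values was not tested.

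Summed over the class, leukocyte subunits came to 95.0, 123 and 84.4 CPM in runx1 null pools and 124, 242 and 151 CPM in wild type pools. Runx1 null pool 2 and wild type pool 1 nearly met. The epithelial subunits summed to 54.5, 39.3 and 68.3 CPM in runx1 null pools and to 46.2, 44.1 and 35.3 CPM in wild type pools, with overlap. itga6b and ITGB4 were the largest parts of the epithelial sum in every pool, and itgb2 the largest part of the leukocyte sum. The ratio of the sums was 1.75, 3.12 and 1.24 in runx1 null pools, against 2.69, 5.49 and 4.27 in wild type pools, so runx1 null pool 2 exceeded wild type pool 1. The sums and their ratio depend on the lengths of the genes and were compared only between pools.

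**Figure D3:**
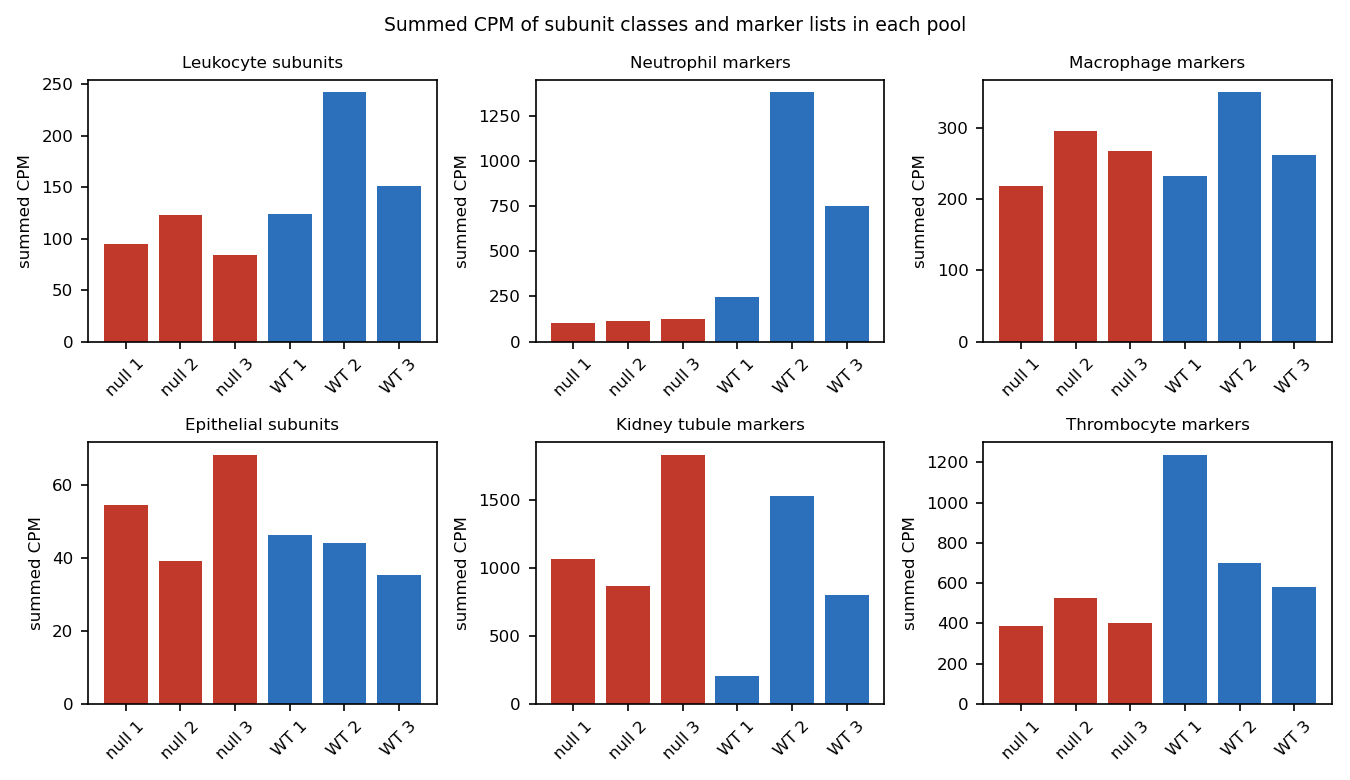
Summed CPM (y axis, from 0) of the leukocyte and epithelial subunits beside neutrophil, macrophage, kidney tubule and thrombocyte markers, in each of the 6 pools (x axis). Wild type pool 2 is highest for leukocyte subunits, at 242 CPM, for neutrophil markers, at 1381 CPM, and for macrophage markers, at 350 CPM. Wild type pool 1 has the lowest tubule sum, at 201 CPM.

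Among epithelial subunits, the alpha6 genes encode the laminin receptor chain that pairs with beta1 or, in hemidesmosomes, with beta4. itga6b (ENSDARG00000069946) was at 23.3, 12.99 and 17.2 CPM in runx1 null pools and 14.4, 10.8 and 7.63 CPM in wild type pools. Only runx1 null pool 2 and wild type pool 1 overlapped, and the log2 fold change was 0.71 (SE 0.35; unadjusted edgeR p 0.0862, adjusted 0.811). ITGA6 (ENSDARG00000042282) was at 5.62, 2.33 and 8.86 CPM in runx1 null pools and 0.965, 5.73 and 3.37 CPM in wild type pools, a log2 fold change of 0.74 (SE 0.73; adjusted p-value in edgeR 0.816). Its lowest value was in wild type pool 1, and without that pool the log2 fold change was 0.29. Without runx1 null pool 3 it was 0.24, and without wild type pool 2 it was 1.36.

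ITGB4 (ENSDARG00000028507), the beta subunit of hemidesmosomes, was at 16.2, 9.03 and 17.4 CPM in runx1 null pools and 21.4, 10.3 and 8.91 CPM in wild type pools. Its highest value was in wild type pool 1, where the tubule markers were lowest, and the genotypes overlapped throughout. The log2 fold change was 0.072 (SE 0.44; adjusted p-value in edgeR 0.971).

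The alpha3 genes encode a laminin receptor chain of tubule cells and of podocytes in mammals. itga3a (ENSDARG00000037917) was at 6.34, 8.15 and 12.6 CPM in runx1 null pools and 2.70, 10.0 and 7.05 CPM in wild type pools, a log2 fold change of 0.45 (SE 0.53; adjusted p-value in edgeR 0.833). ITGA3 (ENSDARG00000012824) was at 1.56, 1.86 and 4.19 CPM in runx1 null pools and 0.820, 3.16 and 2.31 CPM in wild type pools, a log2 fold change of 0.27 (SE 0.63; adjusted p-value in edgeR 0.915). Both were highest in runx1 null pool 3 and lowest in wild type pool 1, the pools with the highest and the lowest sum of tubule markers. Without wild type pool 1, itga3a had a log2 fold change of 0.069 and ITGA3 one of -0.12. itga3a had 0.14 without runx1 null pool 3 and 0.88 without wild type pool 2. The part of tubule content in these values was not tested.

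ITGB6 (ENSDARG00000002494) encodes an epithelial partner of alphaV. It was at 0.658, 0.846 and 5.52 CPM in runx1 null pools and 0.820, 1.15 and 2.64 CPM in wild type pools, so its log2 fold change of 0.61 (SE 0.92; adjusted p-value in edgeR 0.865) rested on runx1 null pool 3 and was -1.03 without it. itga2.3 (ENSDARG00000086838), a collagen receptor chain by its name, was at 0.539, 3.52 and 1.82 CPM in runx1 null pools and 1.495, 1.07 and 1.37 CPM in wild type pools, a log2 fold change of 0.59 (SE 0.67; adjusted p-value in edgeR 0.830). It was -0.17 without runx1 null pool 2.

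ITGA2 (ENSDARG00000062974) stood apart from its class. It encodes the alpha2 chain of the collagen receptor, which in mammals is found on platelets as well as on epithelial cells. It was at 0.299, 0.541 and 0.742 CPM in runx1 null pools, against 3.71, 1.94 and 2.04 CPM in wild type pools. Every runx1 null pool was lower than every wild type pool, on counts of 5, 16 and 20 against 77, 49 and 67. The log2 fold change was -2.25 (SE 0.53), with an unadjusted edgeR p-value of 0.00408 and an adjusted one of 0.787; in DESeq2's Wald test the adjusted p-value was 0.0377, the lowest over the alternatives, which ran up to 0.992. Between fits that left out a library the log2 fold change ran from -2.57 to -1.89.

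The ITGB3 identifiers, one of which may be the thrombocyte gene left out by the rule, showed a similar pattern to ITGA2. The beta3 subunit forms the fibrinogen receptor of thrombocytes with the product of itga2b. ENSDARG00000045070 was at 5.03, 10.4 and 4.75 CPM in runx1 null pools and 39.6, 27.6 and 17.3 CPM in wild type pools, a log2 fold change of -2.06 (SE 0.46), with adjusted p-values of 0.760 in edgeR and 0.0194 in DESeq2. ENSDARG00000056767 was at 0.598, 1.35 and 0.964 CPM in runx1 null pools and 4.34, 5.14 and 3.86 CPM in wild type pools, a log2 fold change of -2.18 (SE 0.44), with adjusted p-values of 0.638 in edgeR and 0.00267 in DESeq2. For both, no runx1 null pool reached the level of any wild type pool. Reads could have been divided between these identifiers by the estimation of counts.

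The thrombocyte markers (itga2b, mpl, gp1bb, gp9 and nfe2) summed to 388, 526 and 402 CPM in runx1 null pools and to 1238, 697 and 582 CPM in wild type pools, with 5 of 5 lower in their mean. Only itga2b and mpl, 2 of 5, did not overlap between the genotypes. Such separation downward was found for 6.24% of all genes tested. Like ITGA2 and ENSDARG00000045070, the thrombocyte sum was highest in wild type pool 1. So were ITGB4 and ITGB1 ENSDARG00000071863, while ITGB3 ENSDARG00000056767 was highest in wild type pool 2, at 5.14 CPM. The part of thrombocytes in the values of ITGA2 and ITGB3 was not tested.

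The broad class holds the beta1 subunit, the partner of most alpha chains, under 4 identifiers with the symbol ITGB1. ENSDARG00000071863 was at 144, 165 and 124 CPM in runx1 null pools and 208, 108 and 108 CPM in wild type pools, with a log2 fold change of 0.029 (SE 0.33; adjusted p-value in edgeR 0.985). ENSDARG00000104484 was at 26.9, 34.8 and 29.7 CPM in runx1 null pools and 26.9, 28.2 and 25.6 CPM in wild type pools, a log2 fold change of 0.18 (SE 0.22; adjusted p-value in edgeR 0.838). The second was the most even of all members, with its highest library 1.36 times its lowest.

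The other ITGB1 identifiers varied far more. ENSDARG00000053232 was at 6.28, 2.40 and 11.8 CPM in runx1 null pools and 2.41, 3.12 and 1.70 CPM in wild type pools. Its log2 fold change was 1.497 (SE 0.61), with an unadjusted edgeR p-value of 0.0449 and an adjusted one of 0.811. That fold change was 0.84 without runx1 null pool 3 and 1.87 without runx1 null pool 2. ENSDARG00000022689 was at 24.4, 3.42 and 52.4 CPM in runx1 null pools and 0.289, 11.8 and 9.67 CPM in wild type pools. The log2 fold change was 1.88 (SE 1.29, adjusted p-value in edgeR 0.811), or 0.93 without runx1 null pool 3 and 2.41 without wild type pool 2. The highest library of this identifier was 181 times its lowest.

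Liver transcripts varied over the same libraries as ENSDARG00000022689. The 5 liver markers (such as fabp10a and tfa) summed to 13751, 1138 and 18110 CPM in runx1 null pools and to 36.9, 3591 and 4823 CPM in wild type pools. For both the liver sum and this identifier, runx1 null pools 3 and 1 were the highest libraries and wild type pool 1 the lowest. That was not particular to liver transcripts. The tubule marker slc12a1 had it too, at 87.4, 68.3 and 146 CPM in runx1 null pools and 11.1, 59.9 and 39.0 CPM in wild type pools. The 5 oocyte markers also ranged widely, from 1.197 to 87.4 CPM in runx1 null pools and from 1.21 to 393 CPM in wild type pools. The part of liver tissue in the ITGB1 value was not tested.

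**Figure D4:**
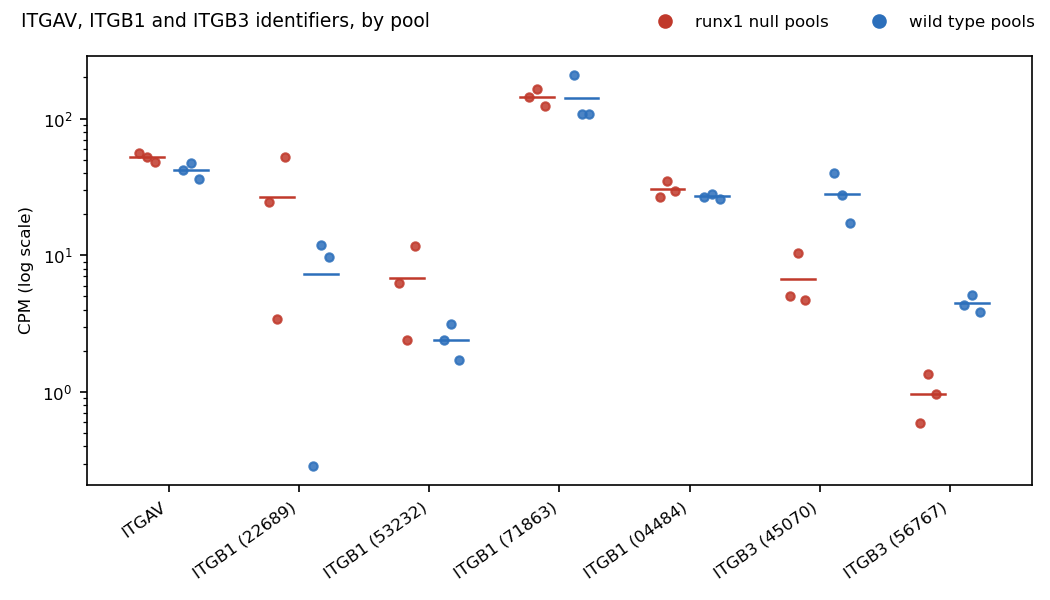
CPM on a log axis (y) of ITGAV, the 4 ITGB1 identifiers and the 2 ITGB3 identifiers (x axis, with the last digits of the identifier); points are pools, runx1 null left of wild type, and lines are means of 3. Both ITGB3 identifiers lie lower in all runx1 null pools, while ITGB1 ENSDARG00000022689 spreads between 0.289 and 52.4 CPM over the 6 pools.

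ITGAV (ENSDARG00000006314) encodes alphaV, the receptor chain for vitronectin and fibronectin. It was at 55.5, 52.1 and 48.4 CPM in runx1 null pools and 41.9, 47.0 and 36.4 CPM in wild type pools. No wild type pool reached the lowest runx1 null pool, by a narrow margin: the log2 fold change was 0.32 (SE 0.22), with an unadjusted edgeR p-value of 0.191 and an adjusted one of 0.811. Such separation upward was found for 6.24% of all genes tested.

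The other 8 tested broad members overlapped between the genotypes, with edgeR adjusted p-values from 0.811 to 0.987. Their log2 fold changes were 0.41 for ITGA5, the fibronectin receptor chain, 0.080 for ITGA1, a collagen receptor chain, 0.11 for ITGA8, the chain that binds nephronectin in kidney development, and 0.035 for ITGA9. ITGA1 ranged from 19.7 to 23.2 CPM in runx1 null pools and from 13.3 to 29.7 CPM in wild type pools, and ITGA8 from 3.15 to 5.68 CPM and from 1.93 to 4.95 CPM in these groups. ITGA5 ranged from 10.3 to 21.2 CPM in runx1 null pools and from 5.45 to 16.02 CPM in wild type pools, and its log2 fold change was 0.051 without runx1 null pool 2, 0.075 without wild type pool 1 and 0.75 without wild type pool 3. ITGA10 had a log2 fold change of 0.61 (SE 0.50) at 0.575 to 1.26 CPM in runx1 null pools and 0.435 to 0.772 CPM in wild type pools. ITGB5, a partner of alphaV, had one of -0.75 (SE 0.65), which rested on 18.7 CPM in wild type pool 3 and was 0.24 without it. The ITGA11 identifiers differed in sign: ENSDARG00000007950 had a log2 fold change of -0.80 (SE 1.099), or 1.04 without wild type pool 3, and ENSDARG00000036086 had one of 0.71 (SE 0.81). The value of ENSDARG00000036086 was 1.90 without wild type pool 1, with an unadjusted edgeR p-value of 0.0261, 0.24 without wild type pool 2 and 2.10 with voom weights.

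There were 3 members with too few counts to be tested. ITGB8 (ENSDARG00000028222) had 2, 8 and 8 counts in runx1 null pools and 0, 9 and 17 in wild type pools. itga2.1 (ENSDARG00000069390) had 1, 17 and 5 counts in runx1 null pools and 3, 2 and 2 in wild type pools. itga6l (ENSDARG00000056018) had 0, 3 and 127 counts in runx1 null pools and 1, 14 and 5 in wild type pools, so nearly all its reads came from runx1 null pool 3.

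Integrins act through adaptor proteins on the inner face of the membrane, such as talin and kindlin, and their activation in blood cells depends on the exchange factor of Rap1 encoded by rasgrp2. Of 37 identifiers on a list of adaptor and signalling genes, all were tested and 0 passed in edgeR. In DESeq2 1 passed, where 0.557% of all genes did. At an unadjusted edgeR p-value under 0.05, 5 were lower and 0 higher, where 2.66% of all genes were lower and 2.57% higher. Over the list 25 of 37 log2 fold changes were negative, where 52.1% of all genes were, and the median was -0.17. The 5 were both RASGRP2 identifiers, flna, parvg and a FERMT3 identifier (ENSDARG00000079267); the last and the second RASGRP2 identifier were named after their values were seen.

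RASGRP2 (ENSDARG00000099092) was at 2.33, 1.05 and 1.08 CPM in runx1 null pools and 8.44, 7.12 and 3.95 CPM in wild type pools, a log2 fold change of -2.14 (SE 0.51), with adjusted p-values of 0.787 in edgeR and 0.0194 in DESeq2. flna (ENSDARG00000074201), which encodes filamin, a protein that links beta subunits to actin, was at 56.5, 79.3 and 85.2 CPM in runx1 null pools and 130, 155 and 171 CPM in wild type pools, a log2 fold change of -1.04 (SE 0.26; adjusted p-value in edgeR 0.811). parvg (ENSDARG00000067711), the parvin of blood cells, was at 4.37, 10.2 and 6.38 CPM in runx1 null pools and 13.7, 18.9 and 15.2 CPM in wild type pools, a log2 fold change of -1.19 (SE 0.38; adjusted p-value in edgeR 0.811). In each of these 3 genes the genotypes did not overlap, with runx1 null pools lower, as was so for 6.24% of all genes tested. The part of thrombocytes and other blood cells in these values was not tested. FERMT3 ENSDARG00000079267, a kindlin of blood cells, had a log2 fold change of -0.90 (SE 0.34; adjusted p-value in edgeR 0.811).

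On a list of 38 identifiers of integrin ligands, 34 were tested and 0 passed in edgeR. In DESeq2 1 passed, where 0.557% of all genes did. At an unadjusted edgeR p-value under 0.05, 3 were higher and 1 was lower, where 2.57% and 2.66% of all genes were, and 28 of 34 log2 fold changes were positive, with a median of 0.54, where 47.9% of all genes were positive. On the list, 5 identifiers encode fibrinogen chains or vitronectin, plasma proteins made by the liver (fga, FGB, FGG and both VTN). Of these, fga and FGB are also among the liver markers. The log2 fold changes of the 5 ran from 1.22 to 1.91. Without them, a set chosen after seeing the data, 23 of 29 were positive, with a median of 0.49. Both identifiers of fibronectin, FN1, were kept among the 29, at log2 fold changes of 0.28 and 0.99. The lower one was THBS1 (ENSDARG00000010785), a thrombospondin stored in platelets in mammals, at 53.7, 65.5 and 59.5 CPM in runx1 null pools and 414, 299 and 172 CPM in wild type pools. Its log2 fold change was -2.31 (SE 0.37), with adjusted p-values of 0.599 in edgeR and 0.000114 in DESeq2. The genotypes did not overlap, and the part of thrombocytes in this value was not tested. The other THBS1 identifier, ENSDARG00000103775, went the other way with overlap, at a log2 fold change of 0.43 (SE 0.62; adjusted p-value in edgeR 0.858).

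E-cadherin, the ligand of alphaE, is encoded by cdh1. cdh1 (ENSDARG00000102750) was at 44.3, 55.2 and 83.2 CPM in runx1 null pools and 19.3, 31.6 and 26.7 CPM in wild type pools, with no overlap and a log2 fold change of 1.24 (SE 0.33; adjusted p-value in edgeR 0.811). LAMB1 (ENSDARG00000101209), a laminin chain of basement membrane, was at 11.6, 19.5 and 19.2 CPM in runx1 null pools and 5.55, 7.67 and 9.21 CPM in wild type pools, a log2 fold change of 1.16 (SE 0.34; adjusted p-value in edgeR 0.811). The third, NID1 (ENSDARG00000068710), had a log2 fold change of 1.35 (SE 0.42; adjusted p-value in edgeR 0.811) and was named after its value was seen. LAMB1 and NID1, unlike cdh1, each have another identifier on the list, with overlap between the genotypes. The log2 fold change was 0.29 (SE 0.39) for LAMB1 ENSDARG00000045524 and 0.52 (SE 0.42) for NID1 ENSDARG00000103129. VTN (ENSDARG00000053831), the gene of vitronectin, a plasma protein made by the liver, was at 73.4, 6.16 and 88.2 CPM in runx1 null pools and 0.386, 21.8 and 28.2 CPM in wild type pools, the same order of libraries as for the liver markers. It too was named after its values were seen, and the part of liver tissue in it was not tested.

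**Figure D5:**
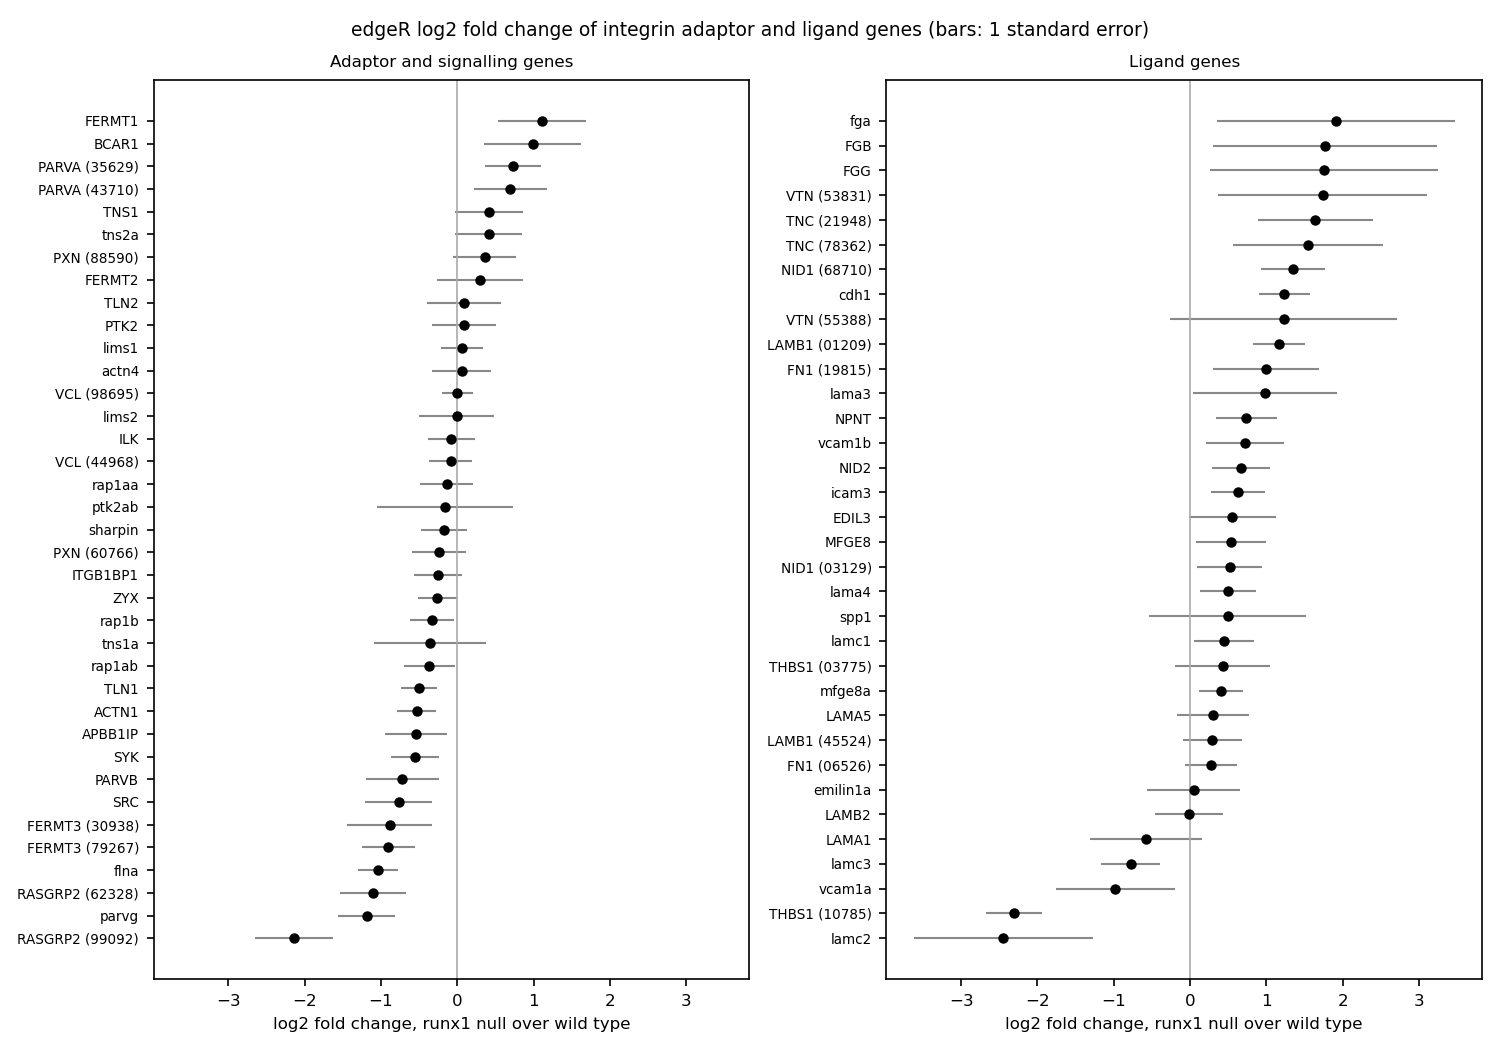
edgeR log2 fold change, runx1 null over wild type (x axis), of the tested adaptor genes (left) and ligand genes (right); points are estimates, bars 1 standard error, and identifiers that share a symbol carry their last digits. Adaptors lie mostly left of 0, with a median of -0.17, and ligands mostly right, with a median of 0.54; none passed the edgeR test.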

How the data were processed

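RNA-seq libraries were made with a TruSeq kit from pools of kidneys. The authors deposited 1 table of expected counts per library. Per the submitters' processing notes STAR, RSEM, DESeq2 and build GRCz10 were used; the annotation, and whether strand was used, are not given in the sources used here. Where a read matches several alike genes, an expected count shares it out by estimation, which leaves genes with a common symbol uncertain. Symbols came from a table of Ensembl identifiers, and list names it lacked from RefSeq synonyms (GRCz12tu); 26433 of 32266 identifiers had a symbol. No sequence or coordinate was used.

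Counts were rounded to whole numbers. Genes were kept with filterByExpr (minimum count 10) and scaled by TMM. Genotype was tested with the quasi-likelihood F test of edgeR 4.0.16 (R 4.3.3), adjusted by Benjamini-Hochberg over all genes at 0.05. An SE is the log2 fold change divided by the square root of F. CPM uses the scaled library size. On simulated data, with log2 fold changes of 2 or 4 in either direction, edgeR missed most of the smaller changes. DESeq2 made false calls there well above the 0.05 level. The simulation was a single draw with the spread that edgeR had estimated, so it cannot give the error rate of DESeq2 in these data. Apart from ITGA2, no tested member had a log2 fold change beyond 2 in either direction. Alternatives included the Wald test of DESeq2 1.42.0 and voom (limma 3.58.1). The labels do not say whether wild type and runx1 null pools were handled together, and p-values measure only the spread between pools.

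The members, classes and lists were chosen with earlier results of these data known. Every tested leukocyte and epithelial member is given by pool; broad members are given by pool if they are ITGB1, do not overlap or have an unadjusted p under 0.05; of each list, the 3 genes with the smallest p and a mean of at least 1 CPM.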

Additional observations from a re-analysis of the deposited data

How the results depend on the processing

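No gene passed in edgeR or voom under any alternative, with 987 genes at an unadjusted p under 0.05 in edgeR and 612 to 1564 in the alternatives; the DESeq2 Wald test called 105 genes and 1 member, ITGA2. Between 1 and 8 members had an unadjusted p under 0.05. The most, 8 of 28, came with voom weights, where 1564 of 18864 genes were under it. Counting both ITGB3 identifiers as broad members, an alternative chosen after seeing the data, gave a broad median of 0.11. It put 5 of 30 members at an unadjusted edgeR p under 0.05, where 5.23% of all genes were. The class medians, over the members that each fit tested, kept their sign. They ran from -1.11 to -0.45 for leukocyte, 0.018 to 0.65 for epithelial and 0.066 to 0.31 for broad subunits.

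Of 389 recomputed fold changes of members, 356 stayed the same in sign and call, 1 was newly called (ITGA2 in DESeq2, -2.29) and 32 changed sign; the cause was not tested. With DESeq2 size factors ITGB1 ENSDARG00000071863 was -0.0087 and in the Wald test -0.0086. With voom weights ITGA1 was -0.16, ITGA8 -0.10, ITGA9 -0.24, ITGA3 -0.29, itga3a -0.00034 and ITGB6 -0.24. Across the fits that left out a library the log2 fold change ran from -0.15 to 0.49 for ITGA1, -0.22 to 0.31 for ITGA8, -0.33 to 0.27 for ITGA9, -0.30 to 0.69 for ITGA3, -1.03 to 1.25 for ITGB6, -0.16 to 0.55 for ITGB4, -0.13 to 0.41 for ITGB1 ENSDARG00000071863, -0.17 to 1.03 for itga2.3, -0.19 to 0.52 for ITGA4, -0.20 to 0.87 for itgb7, -1.35 to 1.04 for ITGA11 ENSDARG00000007950 and -1.16 to 0.24 for ITGB5.

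Pools of either genotype share only a number. The correlations of their deviations from the group means were 0.094, -0.36 and 0.46; 2 of 6 libraries correlated best with their own number. A fit with the replicate block called 0 genes and put 900 at an unadjusted p under 0.05; in it ITGA11 ENSDARG00000007950 was 0.24. Depth limits the members with few counts, such as ITGA2, ITGA10 and those not tested.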
